A study of Mus musculus with 27 samples.

Results

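The genes studied, 9 in number, belong to the intrinsic, or mitochondrial, pathway of apoptosis and were followed through development of the mouse retina: Bax, Bak1, Bcl2, Bcl2l1, Bcl2l11, Bbc3, Apaf1, Casp9 and Xiap. They were taken by gene symbol from a table of 38168 features, in which each of the 9 symbols occurred once, and the rule that picks them uses no measured value. The RNA came from whole retinas of wild type C57BL/6J mice, without treatment and without a mutant group, at embryonic days 14 and 17 (E14, E17) and postnatal days 1, 6, 15, 28 and 60 (P1 to P60). There were 27 RNA-seq libraries, 3 at E14, 3 at E17, 4 at P1, 3 at P6, 4 at P15, 4 at P28 and 6 at P60. The labels give 3 retinas per library, which does not match the numbers in the study's methods. According to the study's methods retinas were pooled, embryos and P1 pups were of both sexes, and males were taken at the later ages. By the same methods 4 of the 6 P60 libraries came from individual mice and the others from pools of 3 mice. Which P60 library is which was not stated. All 9 genes had at least 1 CPM (reads of the feature scaled to a common library total) in at least 3 libraries, so none was lost to the filter on low values.

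In this pathway a stressed or factor-deprived cell raises or activates BH3-only proteins, here BIM (encoded by Bcl2l11) and PUMA (Bbc3), which bind the guardians BCL2 and BCL-XL (Bcl2l1) and so free the effectors BAX and BAK (Bak1) to open the outer mitochondrial membrane. Cytochrome c then leaves the mitochondria and assembles with APAF1 into the apoptosome, which activates caspase 9 (Casp9), and XIAP holds caspase 9 and caspases downstream of it in check. Many cells made in the developing retina, ganglion cells and interneurons among them, are removed by apoptosis around and after birth, and the adult retina consists of neurons that must last for life.

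Library totals recovered from the CPM values ran from 7077781 to 11332323 reads. The study's methods give a larger number of reads collected per library. With these totals 3 reads, taken as the counting floor, amounted to 0.265 to 0.424 CPM. The summed level of 6 photoreceptor markers rose from 96.0 to 102 CPM at E14 to between 23849 and 28537 CPM at P60, and that of 6 progenitor and division markers fell from 5307 to 5441 CPM at E14 to between 144 and 181 CPM at P60. Markers of microglia (6 genes) summed to 10.9 to 24.9 CPM, of vessels (3 genes) to 3.00 to 26.1 CPM, of lens (3 genes) to 0.251 to 5.49 CPM and of blood (5 genes) to 10.7 to 50.3 CPM over all libraries. Sex composition differed with age. Xist, transcribed from the inactive X chromosome of females, was at 2.11 to 627 CPM at E14 and at 404 to 595 CPM at E17, and no library from P6 on had more than 1.73 CPM. At P1 only library 3 had Xist above 1.60 CPM, with 1093 CPM and no read of the Y-linked Ddx3y. Leaving it out ended or added no call among the 9 genes. At P60, libraries 1 and 2 lay apart from libraries 3 to 6 in several of the genes, as given below. Whether this division is that between pools and individual mice was not stated and was not tested.

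The 9 genes lie on 7 chromosomes, and Xiap is X-linked. In the GENCODE annotation of GRCm38 the minus strand carries Bax at chr7:45461697-45466898, Bak1 at chr17:27019810-27029009, Bcl2 at chr1:106538178-106714274, Bcl2l1 at chr2:152780668-152831728 and Apaf1 at chr10:90989311-91082770, and the plus strand Bcl2l11 at chr2:128126038-128162547, Bbc3 at chr7:16308393-16318205, Casp9 at chr4:141793612-141815976 and Xiap at chrX:42059679-42109656. Their merged exons span 1576 bases (Bax) to 9469 bases (Xiap). For each gene, 1 window of 250 bases was taken upstream of the RefSeq start nearest to that of a main coding transcript. Windows are shown for the 3 genes with the largest falls between embryonic and mature retina and for the only gene that rose. Those of Xiap and Bbc3 lie within the gene spans given above, as does that of Bak1, which is not shown. The sequences are those of RefSeq (GRCm38.p6), written on the strand of the gene from 5′ to 3′, and GC boxes (GGGCGG, or CCGCCC where it lies on the other strand) are in capitals. Apaf1 is at chr10:91082744-91082993 on the minus strand, Bcl2 at chr1:106714291-106714540 on the minus strand, Bbc3 at chr7:16309333-16309582 on the plus strand and Xiap at chrX:42068148-42068397 on the plus strand.
Bcl2: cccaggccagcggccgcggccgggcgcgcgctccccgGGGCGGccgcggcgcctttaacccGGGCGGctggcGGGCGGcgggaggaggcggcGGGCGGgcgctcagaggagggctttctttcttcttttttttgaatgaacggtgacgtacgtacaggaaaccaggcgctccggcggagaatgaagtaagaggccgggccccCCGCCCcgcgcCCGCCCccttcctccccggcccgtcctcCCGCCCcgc
Bbc3: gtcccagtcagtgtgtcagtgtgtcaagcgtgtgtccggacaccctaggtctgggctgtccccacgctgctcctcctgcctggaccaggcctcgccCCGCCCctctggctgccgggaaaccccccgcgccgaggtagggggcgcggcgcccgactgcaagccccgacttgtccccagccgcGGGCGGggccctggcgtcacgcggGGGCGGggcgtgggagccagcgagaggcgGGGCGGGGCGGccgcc
Apaf1: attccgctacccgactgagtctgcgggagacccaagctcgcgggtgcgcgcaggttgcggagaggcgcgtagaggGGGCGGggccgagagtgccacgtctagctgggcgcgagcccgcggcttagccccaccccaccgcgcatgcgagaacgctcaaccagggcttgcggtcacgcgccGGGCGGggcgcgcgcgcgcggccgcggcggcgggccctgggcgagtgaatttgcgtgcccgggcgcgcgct
Xiap: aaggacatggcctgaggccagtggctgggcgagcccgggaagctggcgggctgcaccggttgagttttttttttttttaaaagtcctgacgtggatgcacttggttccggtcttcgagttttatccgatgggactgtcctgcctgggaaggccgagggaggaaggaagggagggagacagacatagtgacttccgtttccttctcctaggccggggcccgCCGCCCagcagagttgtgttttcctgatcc
GC boxes were counted on both strands and could overlap. There were 7 in the Bcl2 window, 5 in that of Bbc3 and 2 in that of Apaf1, while the window of Xiap held 1. At least 1 GC box was present for 7 of the 9 genes, all but Bak1 and Bcl2l1, against 32.7% of 32851 RefSeq promoter windows of this length. Bbc3, Bcl2l1 and Xiap have 3 RefSeq starts each and Bcl2l11 has 2, and only the chosen window of each was counted. The CCAAT box (CCAAT, either strand) was found for 1 gene, Bcl2l11, against 33.8% of all windows. The share of G and C was 75.6% for Apaf1, 74.8% for Bcl2, 76.4% for Bbc3 and 57.6% for Xiap, with a median of 52.4% over all windows. It did not follow the direction of change, since Bcl2l1, which also fell, had the lowest share of the 9 genes, 47.6%. The shares over all windows were not limited to coding genes or to genes expressed in retina. They therefore do not set these genes apart from other expressed coding genes. Matches of these letters describe the windows and are not evidence of binding.

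The first comparison asked whether the genes differed between mature and embryonic retina. Cell death itself was not measured at any age. Mature retina (the mean of P15, P28 and P60, 14 libraries) was compared with embryonic retina (the mean of E14 and E17, 6 libraries). Of the 9 genes 8 were lower in mature retina and 1, Xiap, was higher. Bcl2 fell most among them, 3.93-fold in CPM, followed by Bbc3 (3.50-fold) and Apaf1 (2.604-fold), and Xiap rose 3.79-fold. Change was the rule in this tissue: 40.4% of the 31760 features tested were called lower and 35.0% higher, and 83.0% varied over the 7 ages, as did all 9 genes. The median log2 change of the 9 genes was -0.91, compared with -0.06 over all features. Every mature library lay below every embryonic library for 5 of the 9 genes (Bak1, Bcl2, Bcl2l11, Bbc3 and Apaf1), as for 23.0% of all features, and above for Xiap, as for 17.4%. Libraries overlapped for Bax, Bcl2l1 and Casp9.

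**Figure D1:**
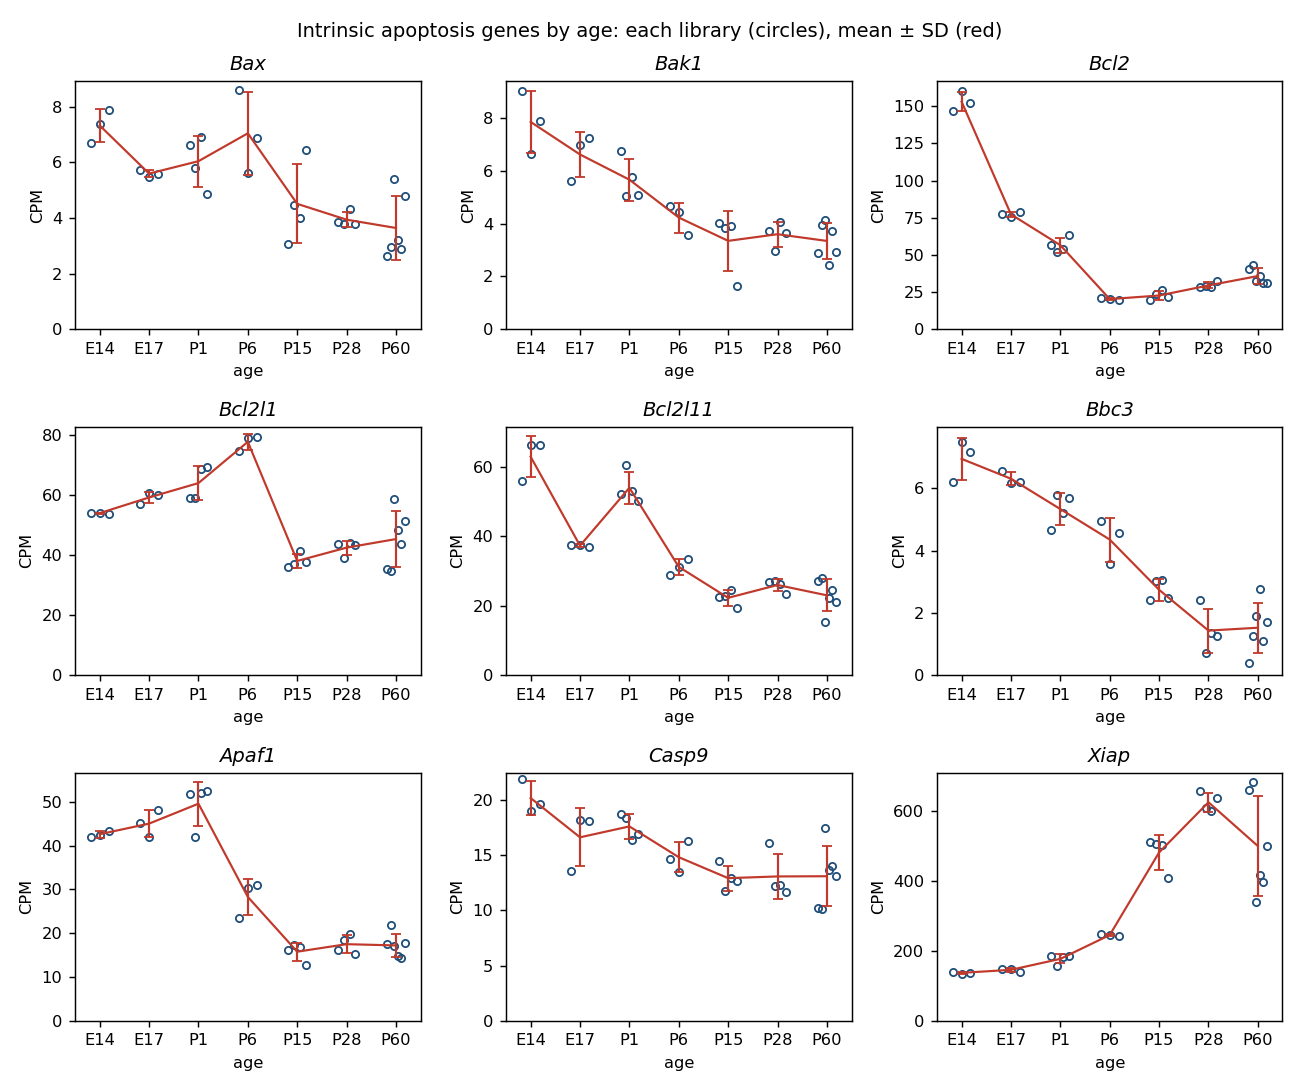
Levels of the 9 genes in CPM (vertical axes, from 0) at each of the 7 ages; circles are single libraries and red lines join the age means with bars of 1 SD. Bcl2 fell from 153 CPM at E14 to 20.3 CPM at P6, Bcl2l1 was highest at P6 with 77.9 CPM, and Xiap climbed to 626 CPM at P28.

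Tests were made with limma on log2(CPM + 1), with Benjamini-Hochberg adjustment over all features and a threshold of 0.05. All 9 calls between mature and embryonic retina were made in every alternative setting in which the gene was tested. Over the same interval the photoreceptor markers rose and the progenitor markers fell as given above, and the summed level of 4 markers of the retinal pigment epithelium went from 0.706 to 3.10 CPM in embryonic libraries to between 8.41 and 46.1 CPM in mature ones, with Mlana at or under 3 reads in every library of all 7 ages. Bipolar markers (5 genes) went from 21.8 to 45.3 CPM to between 1268 and 1689 CPM and Müller glia markers (4 genes) from 260 to 335 CPM to between 869 and 1096 CPM. The sum of ganglion cell markers (7 genes, Thy1 at or under 3 reads at E14) went the other way, from 873 to 1166 CPM in embryonic libraries to between 522 and 856 CPM in mature ones. Its members differed: Rbpms, Pou4f1, Pou4f2, Isl1 and Sncg were lower at P60 than at E14. Nefl was lower at P60 as well, with 362 CPM at E14, 389 CPM at P15 and 299 CPM at P60. Thy1 alone rose, from a mean of 0.035 CPM at E14 to 75.4 CPM at P60. The part of these shifts, and of the change from both sexes to males, in the values below was not tested. In bulk tissue, fewer cells of a type and less RNA per cell cannot be told apart, and p-values measure the spread between these mostly pooled libraries.

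The guardians took separate courses. Bcl2, whose product blocks BAX and BAK and binds BH3-only proteins, was at 147, 160 and 152 CPM in the E14 libraries, at 77.2, 75.4 and 79.1 CPM at E17, and at 56.7, 51.8, 54.2 and 63.4 CPM at P1. It reached its lowest level at P6 with 20.8, 20.5 and 19.4 CPM, then 19.4, 23.6, 26.0 and 21.6 CPM at P15 and 28.1, 28.8, 28.4 and 32.4 CPM at P28. The P60 libraries ran from 31.0 over a median of 34.0 to 43.2 CPM. Libraries of E14, E17, P1 and P6 did not overlap with each other, so the decline showed at each step, and the mature levels stayed below P1. Its log2 change was -0.98 ± 0.12 (SE) from E14 to E17 (adjusted p = 1.9e-07, limma), -0.45 ± 0.11 from E17 to P1 (adjusted p = 6.2e-03) and -1.43 ± 0.11 from P1 to P6 (adjusted p = 2.1e-12). A smaller rise followed, with a log2 change of 0.37 ± 0.10 from P15 to P28 (adjusted p = 0.042) and every P28 library above every P15 library. That call was lost in 18 of 39 alternative settings, with adjusted p values up to 0.16, among them the omission of any 1 library of E14, E17 or P28, of P1 library 1, of P6 library 2, or of P15 library 1, 2 or 4. From P28 to P60 the value was 0.26 ± 0.09 (adjusted p = 0.057), and it passed the threshold in 8 of 39 settings. Mature against embryonic, the log2 change was -1.89 ± 0.07 (adjusted p = 2.2e-21). A noncoding gene on the opposite strand, D630008O14Rik, overlaps 6.10% of the exon bases of Bcl2, and whether strand was used in counting is not given in the sources used here.

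Bcl2l1, which encodes the long guardian form BCL-XL and by splicing also a short death-promoting form, was counted as 1 gene, so its isoforms are summed. Its level was 54.1, 54.1 and 53.9 CPM at E14, 57.3, 60.6 and 59.95 CPM at E17, 59.0, 59.2, 68.6 and 69.4 CPM at P1, and 74.7, 79.3 and 79.6 CPM at P6. It then stood at 36.0, 37.0, 41.5 and 37.8 CPM at P15 and at 43.7, 39.0, 44.1 and 43.2 CPM at P28, and ran from 34.6 over a median of 46.0 to 58.6 CPM at P60. The P6 libraries were thus above those of all other ages, at the age when Bcl2 was lowest. The step from P6 to P15 was a fall of 1.01 ± 0.12 on the log2 scale (adjusted p = 6.3e-08, limma). The preceding value from P1 to P6, 0.28 ± 0.12, missed the threshold (adjusted p = 0.068) although the libraries did not overlap. It passed in 5 of 39 settings, with the fit of the compared ages alone, with a replicate block, and without P60 library 1, 2 or 3. Over the whole age range, mature against embryonic, the value was -0.43 ± 0.08 (adjusted p = 9.4e-06), and the P60 libraries reached into the embryonic range.

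The effectors had few reads. Bax, the cytosolic effector that moves to mitochondria, ranged from 6.70 to 7.89 CPM at E14, from 5.47 to 5.73 CPM at E17, from 4.85 to 6.90 CPM at P1 and from 5.62 to 8.62 CPM at P6. At P15 it ranged from 3.08 to 6.46 CPM, at P28 from 3.77 to 4.33 CPM and at P60 from 2.62 to 5.40 CPM, the last from 20 to 43 reads per library. Gm45808, a gene model on the same strand, overlaps 12.2% of the exon bases of Bax, which counting by strand would not separate. Neighbouring ages overlapped at all 6 places in the order of its levels. With limma, mature libraries were lower than embryonic ones by a log2 change of -0.59 ± 0.13 (adjusted p = 1.9e-04). The single step that passed was P6 to P15 with -0.56 ± 0.20 (adjusted p = 0.032), and it was lost in 10 of 38 settings (adjusted p up to 0.18). These were median-of-ratios scaling, the edgeR fits, DESeq2, and the omission of P6 library 1 or 3 or of P15 library 1, 2 or 3.

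Bak1, the effector that resides in the mitochondrial membrane, drifted down with age. It ranged from 6.65 to 9.003 CPM at E14, from 5.62 to 7.25 CPM at E17, from 5.04 to 6.75 CPM at P1 and from 3.58 to 4.66 CPM at P6. After that it ranged from 1.65 to 4.02 CPM at P15, from 2.95 to 4.06 CPM at P28 and from 2.43 to 4.14 CPM at P60. No single step passed the threshold, yet all mature libraries lay below all embryonic ones, with a log2 change of -0.91 ± 0.13 (adjusted p = 2.6e-07, limma). On the opposite strand, 2 gene models named Ggnbp1 overlap 18.2% and 7.4% of the exon bases of Bak1, and reads from both cannot be told apart if strand was not used.

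Among BH3-only genes, Bcl2l11 changed at 4 successive steps and reversed direction at birth. BIM, its product, is the BH3-only protein best known for death of neurons deprived of growth factor. Levels were 56.1, 66.5 and 66.4 CPM at E14, 37.6, 37.4 and 37.0 CPM at E17, and 52.2, 60.6, 53.1 and 50.2 CPM at P1. They were 29.0, 31.1 and 33.5 CPM at P6, 22.5, 22.8, 24.6 and 19.2 CPM at P15 and 26.9, 27.1, 26.4 and 23.5 CPM at P28, with 15.4, 23.3 and 27.9 CPM as the lowest, median and highest of P60. E17 was low beside both its neighbours, with no overlap on either side. The log2 change was -0.74 ± 0.14 from E14 to E17 (adjusted p = 3.8e-04, limma) and 0.52 ± 0.13 from E17 to P1 (adjusted p = 9.6e-03). It was -0.77 ± 0.13 from P1 to P6 (adjusted p = 1.9e-05) and -0.47 ± 0.13 from P6 to P15 (adjusted p = 6.4e-03). Mature retina was lower than embryonic by a log2 change of -1.01 ± 0.09 (adjusted p = 3.3e-12).

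Bbc3, whose product PUMA is a classic target of p53, fell gradually. It was at 6.20, 7.49 and 7.16 CPM at E14, at 6.54, 6.18 and 6.21 CPM at E17, at 4.66, 5.80, 5.20 and 5.68 CPM at P1 and at 4.95, 3.57 and 4.55 CPM at P6. The P15 libraries had 2.41, 3.03, 3.04 and 2.47 CPM and the P28 libraries 2.40, 0.702, 1.35 and 1.26 CPM, and P60 ran from 0.393 over a median of 1.49 to 2.76 CPM. The lowest P60 value was 3 reads, the counting floor, so single values at P28 and P60 carry a large counting error. No step passed the threshold: the values nearest to it were -0.51 ± 0.24 from P6 to P15 (adjusted p = 0.097, limma) and -0.66 ± 0.22 from P15 to P28 (adjusted p = 0.11), both without overlap of the libraries. Over the whole interval the log2 change was -1.46 ± 0.15 (adjusted p = 3.7e-10).

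The apoptosome genes differed in extent. Apaf1, the scaffold of the apoptosome, stood at 41.9, 42.5 and 43.5 CPM at E14, at 45.1, 41.9 and 48.1 CPM at E17 and at 51.8, 42.1, 52.0 and 52.5 CPM at P1. It dropped to 23.6, 30.3 and 31.0 CPM at P6 and to 16.1, 17.4, 16.9 and 12.8 CPM at P15, then was at 16.3, 18.5, 19.9 and 15.3 CPM at P28 and from 14.3 over a median of 17.3 to 21.8 CPM at P60. Its decline was thus confined, among the 6 steps, to the 2 between P1 and P15, with log2 changes of -0.79 ± 0.13 (adjusted p = 1.2e-05, limma) and -0.80 ± 0.13 (adjusted p = 1.4e-05) and no overlap at either. Mature against embryonic, the log2 change was -1.34 ± 0.09 (adjusted p = 2.7e-15).

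Casp9, the initiator caspase that the apoptosome activates, moved least of the 9 genes, 1.56-fold between its highest and its lowest age. Its libraries ranged from 19.0 to 21.9 CPM at E14, from 13.6 to 18.2 CPM at E17, from 16.4 to 18.8 CPM at P1 and from 13.5 to 16.3 CPM at P6. They ranged from 11.7 to 14.5 CPM at P15, from 11.7 to 16.1 CPM at P28 and from 10.1 to 17.4 CPM at P60. No step passed, and embryonic and mature libraries overlapped, with a log2 change of -0.47 ± 0.10 (adjusted p = 7.8e-05, limma). Its variation over the 7 ages (adjusted p = 9.9e-04) was lost when edgeR was run without E14 library 1 (adjusted p = 0.12). Cela2a and Ctrc on the opposite strand each overlap 1.80% of its exon bases.

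Xiap, the caspase inhibitor, was the only one of the 9 genes with a higher level in mature than in embryonic retina. Its level was 141, 135 and 136 CPM at E14, 149, 149 and 140 CPM at E17, and 184, 158, 183 and 184 CPM at P1. It rose to 248, 246 and 244 CPM at P6, to 513, 506, 502 and 408 CPM at P15 and to 658, 609, 600 and 638 CPM at P28, and ran from 340 over a median of 460 to 684 CPM at P60. Libraries of E17, P1, P6, P15 and P28 did not overlap at any step. With limma the log2 change of P6 against P1 was 0.47 ± 0.14 (adjusted p = 9.2e-03) and that of P15 against P6 0.96 ± 0.14 (adjusted p = 2.9e-06), while 0.28 ± 0.14 from E17 to P1 (adjusted p = 0.29) and 0.38 ± 0.13 from P15 to P28 (adjusted p = 0.14) did not pass. The last step, P60 against P28, gave -0.37 ± 0.12 (adjusted p = 0.043). That call was lost in 18 of 39 settings (adjusted p up to 0.27), among them other scalings, edgeR, DESeq2, the replicate block (adjusted p = 0.13), and the omission of any P28 library or of P60 library 3, 4, 5 or 6. P60 libraries 1 and 2 had 663 and 684 CPM, above all P28 libraries, and the other 4 had 340 to 501 CPM. Those same libraries, 1 and 2, had 35.4 and 34.6 CPM of Bcl2l1 against at least 43.8 CPM in the others, and 10.2 and 10.1 CPM of Casp9 against at least 13.1 CPM. They also had 40.8 and 43.2 CPM of Bcl2 against at most 35.5 CPM. Mature against embryonic, the log2 change of Xiap was 1.89 ± 0.09 (adjusted p = 2.9e-18). The level in P1 library 3, the P1 library with Xist, was 183 CPM, within the 158 to 184 CPM of the other P1 libraries, and at E14, where Xist ran from 2.11 to 627 CPM, Xiap stayed between 135 and 141 CPM.

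**Figure D2:**
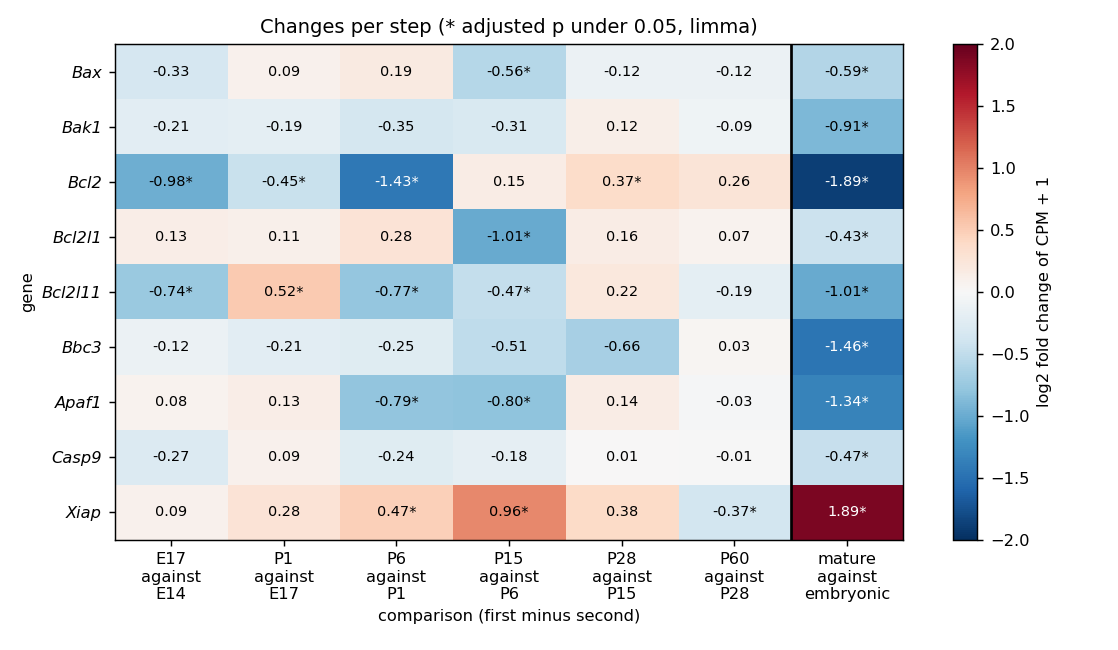
Log2 change of CPM + 1 (color, from -2 in blue to 2 in red, with the value in each cell) for each gene (rows) at the 6 successive steps and between mature and embryonic retina (columns); asterisks mark adjusted p under 0.05 with limma. Calls lie mostly at P6 against P1 (4 genes) and P15 against P6 (5 genes), and 8 of 9 genes fell in the last column.

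The next question was at which step the genes changed. From E14 to E17 none of the 9 genes rose and 2 fell (Bcl2 and Bcl2l11), where 7.56% of all features rose and 3.02% fell. From E17 to P1, 1 rose (Bcl2l11) and 1 fell (Bcl2), beside 5.77% and 3.43% of all features. From P1 to P6, 1 gene rose (Xiap) and 3 fell (Bcl2, Bcl2l11 and Apaf1), beside 18.0% and 20.4% of all features. From P6 to P15, 1 rose (Xiap) and 4 fell (Bax, Bcl2l1, Bcl2l11 and Apaf1), beside 14.4% and 19.0%. Bcl2 alone rose from P15 to P28 and none fell, beside 1.14% and 1.58% of all features. From P28 to P60 none rose and Xiap fell, beside 4.80% and 8.11%. The steps with the most calls among the 9 genes were therefore those with the most calls in the whole table. The median log2 change of the 9 genes was -0.25 from P1 to P6 and -0.47 from P6 to P15, and over all features it was -0.03 and -0.06. In the last step the balance of all calls depended on scaling: 37.2% of calls were rises in the values as deposited, 51.6% with median-of-ratios scaling and 60.7% with edgeR's TMM.

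Ratios of members within a library are given as a description. They depend little on the library total for genes far above the added 1, and more for Bax and Bak1. The log2 ratio of Bcl2 to Bcl2l1, computed on CPM + 1, was 1.48 ± 0.06 (SD, n = 3) at E14, 0.38 ± 0.06 (n = 3) at E17 and -0.18 ± 0.12 (n = 4) at P1. It reached -1.89 ± 0.09 (n = 3) at P6 and came back to -0.73 ± 0.11 (n = 4) at P15, -0.52 ± 0.12 (n = 4) at P28 and -0.32 ± 0.47 (n = 6) at P60. These are ratios of reads and are not corrected for the lengths of the transcripts, so their course over age is what they show. The ratio of Bax to Bcl2 followed the reverse course, from -4.21 ± 0.09 (n = 3) at E14 to -1.42 ± 0.26 (n = 3) at P6 and -3.01 ± 0.48 (n = 6) at P60. Bax to Bcl2l1 stayed within narrower limits, with age means from -3.33 to -2.73, and its change between embryonic and mature retina, -0.15, was smaller than the spread within ages (pooled SD 0.22). With 0.1 in place of the added 1 that change was -0.25, close to its pooled SD of 0.26. Bak1 to Bax had age means from -0.61 at P6 to 0.20 at E17, and its change of -0.32 was within the pooled SD of 0.37.

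**Figure D3:**
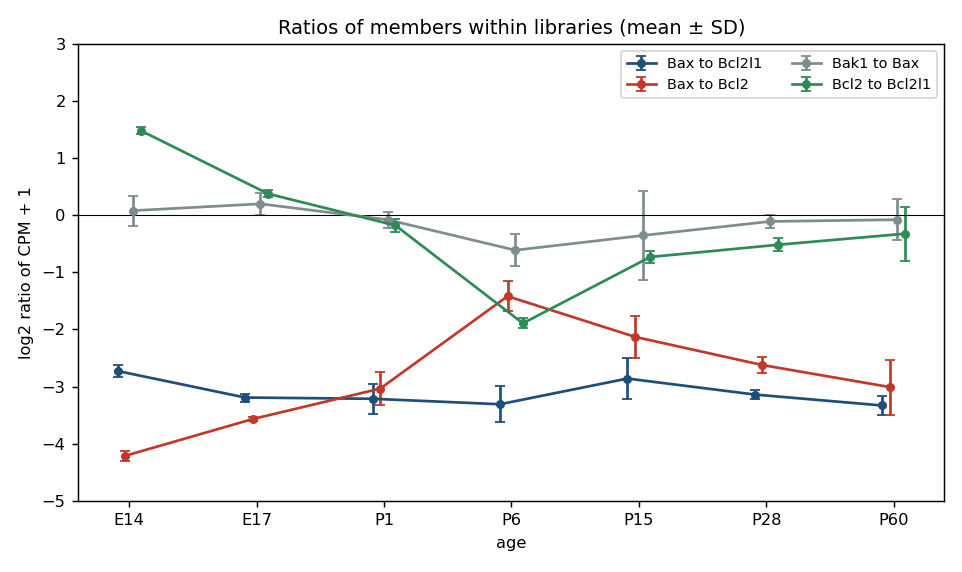
Log2 ratios of CPM + 1 of pairs of members within each library (vertical axis) by age; points are age means and bars 1 SD. Bcl2 to Bcl2l1 went from 1.48 at E14 to its lowest mean at P6 (-1.89), where Bax to Bcl2 was highest (-1.42). Both of these ratios contain Bcl2, on opposite sides. Ratios are not corrected for length, so the line at 0 does not mark equal levels.

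Levels of different genes were compared per kilobase of merged exons. At E14 Bcl2 led with 16.7 CPM per kb, followed by Xiap with 14.5 and Bcl2l1 with 11.8 CPM per kb, and the libraries of these 3 genes did not overlap. By P6 the order was Xiap (25.9 CPM per kb), Bcl2l1 (16.98 CPM per kb) and Bax (4.47 CPM per kb), while Bcl2 had gone to rank 7 with 2.21 CPM per kb. At P60 Xiap had 52.9 CPM per kb, from 35.9 to 72.2 over the libraries, and Bcl2l1 9.90 CPM per kb, from 7.55 to 12.8. Bcl2 followed with 3.90 CPM per kb (3.39 to 4.72), its libraries overlapping those of Bcl2l11, and Bbc3 came last with 0.716 CPM per kb. Apaf1 was above Casp9 at E14 (4.72 and 3.88 CPM per kb) and below it on average at P60 (1.91 and 2.52 CPM per kb), with overlapping libraries at P60. Per base of the longest transcript, the mean order over all libraries was the same but for Bak1 and Bbc3, which changed places, while at E17 Bcl2l1 (23.1 CPM per kb) came before Xiap (21.4 CPM per kb), as it did at E14 (21.0 and 20.1 CPM per kb). By that measure the lead of Bcl2 at E14 (21.3 CPM per kb, 20.4 to 22.2) was within its spread, its libraries overlapping those of Bcl2l1.

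**Figure D4:**
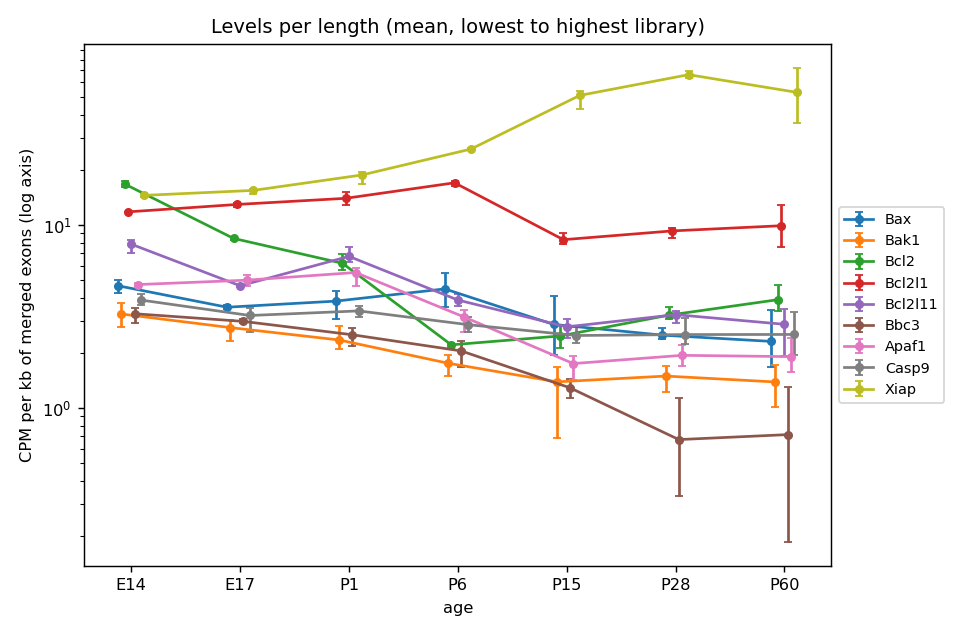
Mean CPM per kb of merged exons (log axis) for the 9 genes at each age; bars run from the lowest to the highest library. The means of Xiap and Bcl2l1 lie above those of the other 7 genes from E17 on, and Bcl2 goes from rank 1 at E14 (16.7) to rank 7 at P6 (2.21).

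Across the 27 libraries, which share the age series, Xiap was inversely related to each of the other 8 genes, with Pearson's r from -0.91 (Bbc3) to -0.71 (Bcl2) on log2(CPM + 1). The closest pair was Bcl2l11 and Apaf1 (r = 0.889) and the weakest positive pair Bcl2 and Bcl2l1 (r = 0.210). Among about 10725 features with a gene identifier and a mean of at least 10 CPM, the profile most like that of Xiap was that of Oxr1, an antioxidant protection gene (r = 0.986), followed by Fam3c and Fgf2os (both 0.979). Apaf1 was most like Tmod3 (r = 0.982), Tox (0.976) and Ypel1 (0.975). Bcl2 was most like Phactr2 (r = 0.973), Luzp1 (0.962) and Gm4737 (0.958). For Bcl2l11 these were Zc3h12c (r = 0.946), Txlng and Fut10 (both 0.944). Bbc3 was followed by Fam135a (r = 0.944), Hspg2 (0.942) and Tubb2a (0.940), and Bak1 by Ncs1 (0.924), Tox4 (0.907) and 2700094K13Rik (0.906). The remaining genes had Atxn7l3 (r = 0.911), Eif4a3 (0.880) and Gm10382 (0.865) for Casp9 and Brd7 (0.903), Zfp536 and Kdm4a (both 0.897) for Bcl2l1. The loosest matches were those of Bax, with Gstm5 (r = 0.858), Maged1 (0.854) and Ptms (0.843). Only 6 of these 27 nearest pairs, 3 per gene, also ranked among the nearest 3 by Spearman's rho. These coefficients describe a shared course over age and nothing more.

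Other genes of cell death were taken from lists by role. Of 50 genes, 47 were in the table and 39 passed the filter, and between embryonic and mature retina 13 rose and 18 fell, with a median log2 change of -0.10. These counts are near the shares over all features given above, 35.0% and 40.4%, and so are no result about the lists. The counts per list given below are parts of these totals, stand beside the same shares, and are no result about a list either. Among them 5 genes (Bcl2l10, which rose, and Bik, Birc5, Trp73 and E2f2, which fell) passed the filter on low values only through the ages at which they were high. Their calls support nothing, here or in the counts below. Neither Pmaip1, which encodes the BH3-only protein NOXA, nor Fas, Fasl, Trp63 and 4 Naip genes passed the filter.

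In the BCL2 family 4 further multidomain genes were tested, of which 2 rose and 1 fell. Bcl2l2, which encodes the guardian BCL-W, had 29.3 ± 0.20 CPM (SD, n = 3) in E14 libraries and rose to 64.5 ± 4.0 CPM (n = 6) at P60, which made a log2 change of 1.06 for mature against embryonic libraries (limma, adjusted p = 4.0e-16). Mcl1, a guardian with a short-lived protein, fell by 0.99 on the log2 scale (adjusted p = 4.5e-17), from 136 CPM at E14 to 59.4 CPM at P60. Bcl2l10 had no read at E14, at most 0.353 CPM in embryonic libraries and 2.29 ± 0.64 CPM (n = 6) at P60. Bok had a log2 change of -0.10 and was not called. Of 5 further BH3-only genes 2 rose and 2 fell. Bmf rose by 0.84 on the log2 scale (adjusted p = 5.7e-06) and Hrk by 0.48 (adjusted p = 2.1e-03), both with a maximum at P6, of 14.2 and 9.37 CPM. Bid, the link from death receptors to mitochondria, fell by 1.27 on the log2 scale (adjusted p = 3.8e-10), and Bad was not called (0.01). Bik was at 0.381 CPM at E14, 0.834 CPM at E17 and 0.367 CPM at P60, with at most 12 reads in a library, so that its call rests on few reads.

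Downstream of the mitochondria, Casp2 fell by 1.80 on the log2 scale (adjusted p = 5.0e-23, limma), from 81.3 ± 1.10 CPM (n = 3) at E14 to 22.0 ± 1.5 CPM (n = 6) at P60. Casp6 fell by 1.64 (adjusted p = 1.0e-11), from 9.16 CPM at E14 to 1.90 CPM at P60, and Dffa, the inhibitor of the DNA-cutting nuclease, rose by 0.23 (adjusted p = 0.029), a call lost in 6 alternative settings (adjusted p up to 0.19). The 5 genes for released mitochondrial factors split 2 and 2 with small changes, the XIAP antagonists Htra2 at 0.35 and Diablo at -0.34 among them. The log2 change of Cycs, which encodes cytochrome c, was -0.32 (adjusted p = 0.023), and its call was lost in 10 settings (adjusted p up to 0.34). Of 4 other members of the IAP family none rose. Birc5, which acts in cell division, fell by 5.27 on the log2 scale, from 54.9 CPM at E14 to 0.81 CPM at P60. It passed the filter only through the ages at which it was high. The rise of Xiap was not shared by Birc2, Birc3 or Birc6, which were not called.

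In the extrinsic pathway 1 of 6 genes rose and 4 fell. Cflar, the inhibitor of caspase 8, rose by 0.98 on the log2 scale (adjusted p = 3.3e-16, limma), while Casp8 fell by 1.53 on the log2 scale (adjusted p = 1.0e-09) and Fadd by 0.97 (adjusted p = 2.3e-08). Among 9 transcriptional regulators of death genes 4 rose and 5 fell. E2f1 fell by 4.65 on the log2 scale (adjusted p = 1.5e-24), from 44.7 CPM at E14 and 64.9 CPM at P1 to 5.45 CPM at P6. E2f2 was lower by 3.77 but passed the filter only through the ages at which it was high. Both genes are tied to the cell cycle. Jun fell by 1.26 on the log2 scale (adjusted p = 2.3e-13). Foxo1 rose by 1.0 (adjusted p = 6.6e-14), Ddit3 by 0.73 (adjusted p = 1.6e-08) and Trp53, which encodes p53, by 0.45 (adjusted p = 9.7e-04). By step, 7 of the 39 genes rose and 13 fell from P1 to P6, beside 18.0% and 20.4% of all features. From P6 to P15, 4 rose and 10 fell, beside 14.4% and 19.0%. In the other 4 steps together 5 rose and 4 fell, where 1.14% to 8.11% of all features were called per step and direction.

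**Figure D5:**
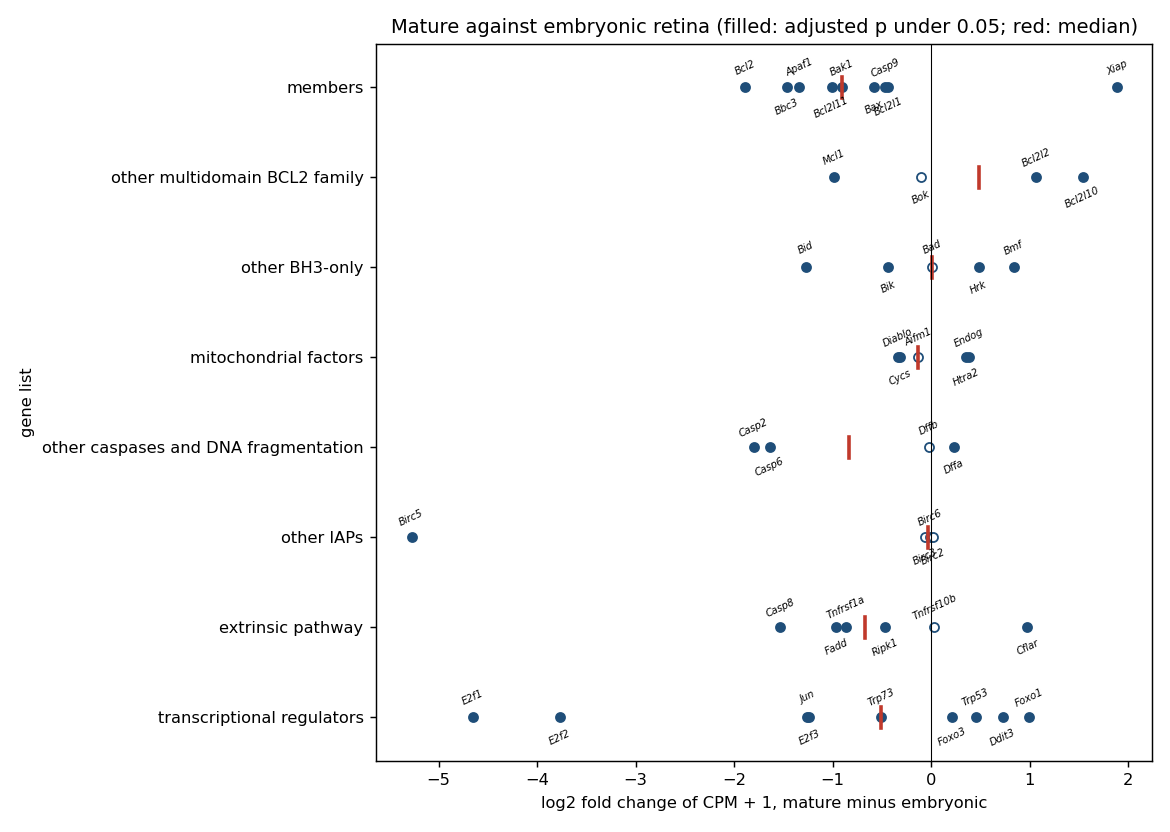
Log2 change of CPM + 1 between embryonic and mature retina (horizontal axis) for the 9 members and 37 other cell death genes tested, in rows by list; filled circles passed adjusted p under 0.05 with limma, open circles did not, and red bars are medians of the genes drawn in a row. Xiap is the only member to the right of 0. Birc5 (-5.27), which passed the filter only through the ages at which it was high, lies farthest to the left.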

How the data were processed

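Total RNA from whole retinas was made into libraries with a SMARTer total RNA kit, and the authors' notes name STAR and the mouse genome mm10. The authors deposited 1 table of CPM per feature. The annotation and the use of strand in counting are not given in the sources used here. In all 27 libraries 100% of CPM values were whole multiples of 1 read (tolerance 0.01), which gave library totals of 7077781 to 11332323 reads. The floor of 3 reads covers counting error alone. Age groups were read from the sample titles. The main test was limma 3.58.1 (R 4.3.3) with a mean-variance trend on log2(CPM + 1), age as a factor and no block, for the 31760 of 38168 features that reached 1 CPM in 3 or more libraries, with Benjamini-Hochberg adjustment. Fold changes on this scale understate those of low genes. Alternatives were a pseudocount of 0.1, other filters, median-of-ratios scaling, a replicate block, edgeR 4.0.16 and DESeq2 1.42.0 on recovered reads, no trend, summed entries, fewer ages, and each library left out. On simulated counts with 200 features changed by 1.5 on the log2 scale, limma recovered 200 of 200 for mature against embryonic (30517 features, 9 false calls). All simulated features shared 1 spread, the changed ones were not among the low ones, and the rest stayed unchanged. The recovery therefore does not gauge calls of smaller changes, of low genes or at ages with uneven libraries. Gene models were from GENCODE M21 and promoters from RefSeq. All 9 members were named, from the lists chiefly the genes with the largest called changes, and from the search for like profiles the nearest 3 per gene. The members and lists were chosen with earlier results of these data known. No 2 libraries agreed within sampling noise. Values of 2 listed genes, counted in the list totals, are not reported here.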

Additional observations from a re-analysis of the deposited data

Results flagged for a closer look

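Within 36 sets of 4 to 6 libraries of 1 gene and age, 8 had a library far from the others by Dixon's criterion, which chance alone meets in about 1 of 20 sets. Apaf1 in P1 library 2 was at 42.1 CPM, with the other P1 libraries at 51.8 to 52.5 CPM. The same library was low in Xiap, at 158 CPM against 183 to 184 CPM. P15 library 4 was low in Xiap, at 408 CPM against 502 to 513 CPM, and in Bak1, at 1.65 CPM against 3.82 to 4.02 CPM. At P28, Bax was at 4.33 CPM in library 3 against 3.77 to 3.86 CPM, and Bcl2 at 32.4 CPM in library 4 against 28.1 to 28.8 CPM. Bcl2l1 was at 39.0 CPM in P28 library 2 against 43.2 to 44.1 CPM, and Casp9 at 16.1 CPM in P28 library 1 against 11.7 to 12.3 CPM. Of these, leaving out P28 library 4, 2, 3 or 1 ended the call of Bcl2 from P15 to P28, and leaving out P15 library 4 did so too.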

How the results depend on the processing

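The 9 calls between mature and embryonic retina, and the counts of calls at the steps up to P15, held within 1.5 times under every alternative that was run. Of 2445 single values compared, 2353 kept their direction and side of the threshold, 46 lost a call, 18 gained one and 28 changed sign, none of these last being called either way. From P15 to P28, 1 gene was called, against 0 with edgeR without E14 library 1 and 0 without the trend, and 0 to 2 with each library left out. From P28 to P60 it was 1, against 0 with a pseudocount of 0.1, without a filter, without the trend or with the compared ages alone, 2 with a mean of at least 10 CPM (6 genes tested), and 0 to 1 with each library left out. An equal count at this step need not be the same gene. The fall of Xiap was lost in 18 of 39 settings, and a rise of Bcl2 passed in 8 of 39. Of the other cell death genes 31 of 39 were called, and 19 of 22 with a mean of at least 10 CPM, since fewer were tested. Spearman's rho kept 6 of 27 like pairs. The log2 change of Apaf1, P60 against P28 (-0.03) turned to 0.038 with median-of-ratios scaling, 0.0312 with edgeR TMM (also without E14 library 1), 0.0444 with RLE and 0.044 with DESeq2, and that of Casp9, P60 against P28 (-0.01) to 0.0561, 0.0686, 0.0846 and 0.0843. With each library left out these ran from -0.0958 to 0.0324 and from -0.0915 to 0.0877. The values of Bcl2l1, P60 against P28, ran from -0.0087 to 0.14 and those of Bbc3, P60 against P28, from -0.12 to 0.21. Those of Bax, P28 against P15, ran from -0.26 to 0.0334, of Bak1, P28 against P15, from -0.10 to 0.21, of Casp9, P28 against P15, from -0.0884 to 0.0602 and of Casp9, P1 against E17, from -0.0424 to 0.15. The cause was not tested. The median of all features between mature and embryonic retina went from -0.06 to 0.04 with TMM.

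Libraries with the same replicate number did not deviate together (r from -0.13 to 0.17 over 69 pairs, median -0.0018, and -0.29 to 0.25 over 240 pairs of different number), so the numbers do not pair the samples. With a replicate block 9 members were called between mature and embryonic retina, 5 from P1 to P6 and 1 from P28 to P60, where Bcl2 took the place of Xiap, and the log2 change of Apaf1, P60 against P28, was 0.0183. Depth limits Bbc3, Bax and Bak1, with 3 to 90 reads per library.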
